A study of Homo sapiens with 6 samples.

Results

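Prostaglandin E2 (PGE2) synthesis and receptor genes were examined in RNA-seq libraries of Hs578T, a triple-negative breast cancer cell line with a mesenchymal phenotype. The group was defined by gene symbol and held 10 genes of the 46427 in the count table. These were the cyclooxygenase genes PTGS1 and PTGS2, the PGE2 synthase genes PTGES, PTGES2 and PTGES3, the 4 receptor genes PTGER1 to PTGER4, and HPGD, which encodes the enzyme that begins PGE2 breakdown. The group was put together with the results of the knockdown comparison known, so the differences of these 10 genes between the lines are given as a description. The comparison was between 3 libraries of cells carrying control shRNA (shCTRL) and 3 libraries of cells carrying CCN3 shRNA #2 (shCCN3), both delivered with the retroviral pSUPER vector and both selected with puromycin. The labels name no other treatment, and both lines were grown in serum-containing medium. The methods speak of selected clones without giving their number, and a single CCN3 shRNA was sequenced, so an effect of CCN3 loss cannot be told apart from an effect of this shRNA or of the selected line. In bulk RNA, fewer expressing cells and less RNA per cell cannot be told apart either.

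PGE2 is made from arachidonic acid. Phospholipase A2 enzymes release arachidonic acid from membranes, cyclooxygenases convert it to PGH2, and PGE synthases turn PGH2 into PGE2. PGE2 acts on EP1 to EP4, receptors encoded by PTGER1 to PTGER4. EP2 and EP4 raise cyclic AMP through the G protein Gs, EP1 acts mainly through calcium, and EP3 mainly lowers cyclic AMP. The transporter SLCO2A1 carries PGE2 into cells, where 15-hydroxyprostaglandin dehydrogenase (HPGD) inactivates it. In breast cancer the pathway is known for COX-2 (PTGS2), whose expression has been linked to invasive disease.

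The libraries held 56159110 to 68393177 counts. Means are given ± SD over n = 3 libraries in each group throughout, and log2FC is the log2 fold change of shCCN3 over shCTRL with its standard error (SE). CPM denotes counts per 1000000 after TMM normalization, and 3 counts in a library corresponded to 0.0435 to 0.0540 CPM, which covers counting error only. The shRNA targets CCN3, whose mRNA was 103, 102 and 98.1 CPM in the shCTRL libraries and 47.4, 47.2 and 46.5 CPM in the shCCN3 libraries, and an exact two-sided permutation test gave p = 0.1, below which no such test of 3 libraries against 3 can go. The mesenchymal markers VIM, CD44, AXL, CAV1, CDH2 and FN1 summed to 14037 to 14208 CPM in shCTRL and 13140 to 13353 CPM in shCCN3 cells. They moved in both directions, with a log2FC of 0.87 for CDH2, -0.65 for CAV1 and -0.25 for CD44. VIM, AXL and FN1 had ones of -0.14, 0.04 and 0.18. Of 8 luminal or epithelial markers, 4 were below 1 CPM on average over all libraries (ESR1, EPCAM, CDH1 and GATA3). GATA3 had means of 1.16 CPM in shCTRL and 0.729 CPM in shCCN3 libraries. The list summed to 249 to 279 CPM in shCTRL and 309 to 359 CPM in shCCN3 cells. KRT18 gave 156 to 171 and 212 to 263 CPM of these sums (log2FC 0.51). In the same order, ERBB2 had means of 77.9 and 78.2 CPM. KRT8 was at 17.7 to 21.3 and 13.5 to 14.7 CPM (log2FC -0.52). PGR was at 2.66 to 3.25 and 3.35 to 4.56 CPM, and missed an adjusted p of 0.05. Of 8 leukocyte and endothelial markers, CD3E, MS4A1 and CDH5 were at 0 in every library, 6 were below 1 CPM on average, and the summed level was 98.9 to 112 CPM in shCTRL and 61.6 to 63.6 CPM in shCCN3 cells, of which CD68 gave 95.1 to 107 and 57.8 to 59.4 CPM. What part these markers had in the differences was not tested.

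The clearest differences lay in the receptors and in HPGD. PTGER2 was 4.19-fold lower and HPGD 3.33-fold lower after CCN3 knockdown, whereas PTGER4 was 1.70-fold higher. The fitted differences of PTGS2 and the synthase genes were 1.32-fold or less. PTGS1 and PTGER1 were too low to be tested.

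**Figure D1:**
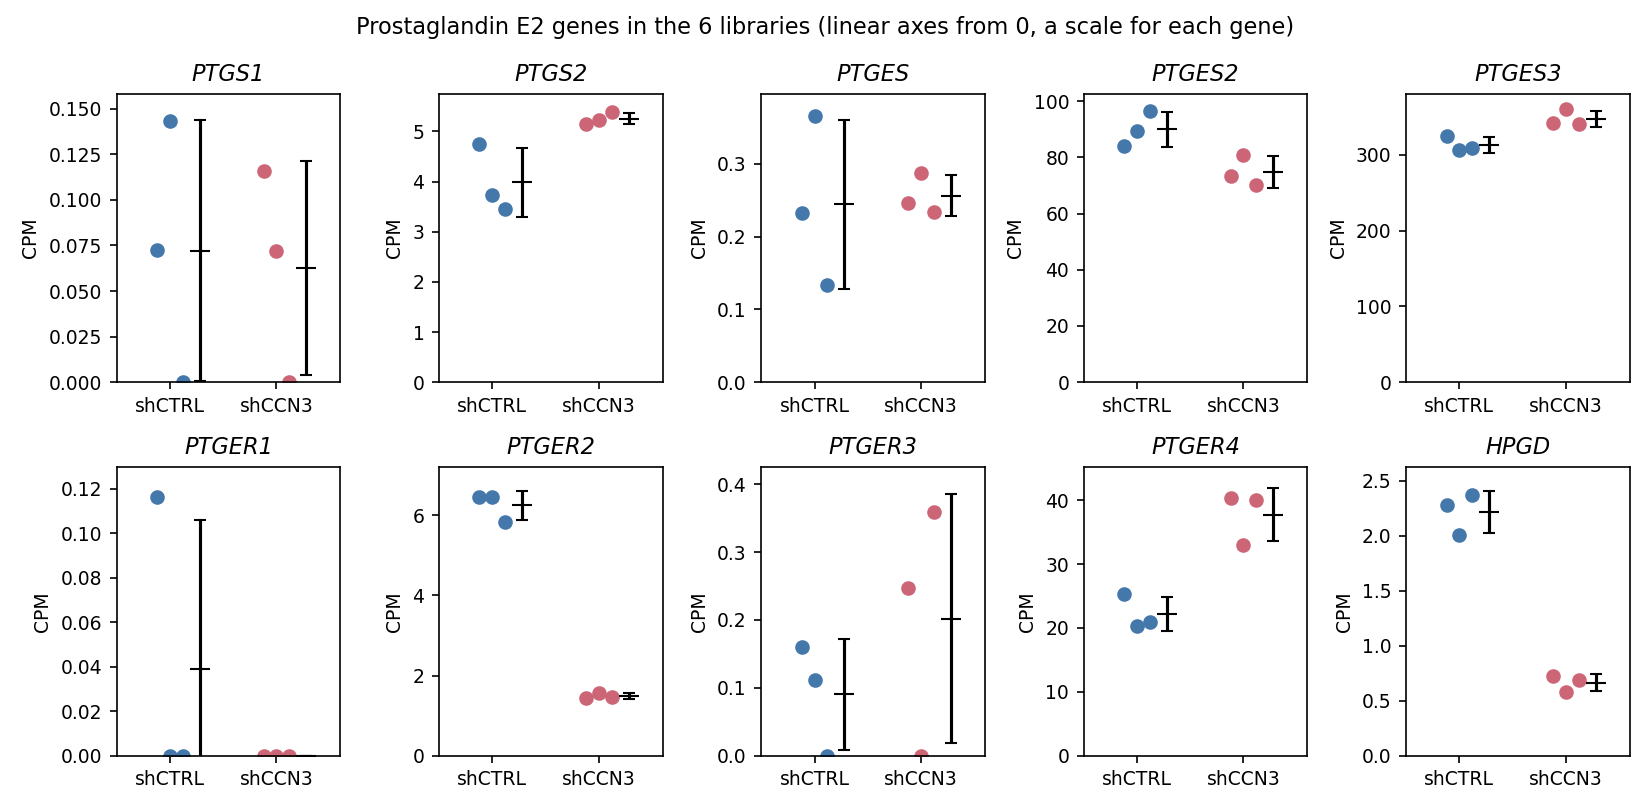
Normalised counts (CPM, linear axes from 0, a separate scale for each gene) of the 10 PGE2 genes in 3 shCTRL and 3 shCCN3 libraries, with points for libraries and bars for mean ± SD. PTGER2 and HPGD sit lower in all 3 shCCN3 libraries and PTGER4 sits higher, while PTGS1, PTGER1, PTGER3 and PTGES stay below 0.4 CPM in every library.

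Among the receptors, PTGER2 encodes EP2. It lies on chromosome 14 of GRCh38 from 52314305 to 52328606. PTGER2 mRNA was 6.46, 6.44 and 5.84 CPM in the shCTRL libraries and 1.44, 1.57 and 1.47 CPM in the shCCN3 libraries. The lowest shCTRL library was above the highest shCCN3 library by far more than the spread within either group. The mean was 6.25 ± 0.354 CPM in shCTRL and 1.49 ± 0.0671 CPM in shCCN3 libraries. The log2FC was -2.07 (SE 0.121, 95% confidence interval -2.34 to -1.79). In the 6 fits that each left out 1 library it ran from -2.11 to -2.04.

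PTGER4 encodes EP4, the other Gs-coupled receptor, and lies on chromosome 5 from 40679498 to 40693735. PTGER4 mRNA was 25.2, 20.3 and 20.9 CPM in the shCTRL libraries and 40.3, 32.9 and 40.0 CPM in the shCCN3 libraries. The groups did not overlap, although shCTRL replicate 1 was high within its group and shCCN3 replicate 2 low within its own. The mean rose from 22.1 ± 2.69 CPM to 37.8 ± 4.17 CPM. Its log2FC was 0.77 (SE 0.109, 95% confidence interval 0.52 to 1.02), with a range of 0.71 to 0.87 over the fits that each left out 1 library. The gene TTC33 overlaps PTGER4 on the opposite strand, but the annotated exons of the genes share 0 bases. TTC33 was 22.5 ± 1.68 CPM in shCTRL and 28.6 ± 3.94 CPM in shCCN3 libraries.

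The other receptors were close to the limit of detection. PTGER3, which encodes EP3, held 11, 7 and 0 counts in the shCTRL libraries and 17, 0 and 23 counts in the shCCN3 libraries. The groups overlapped, and the log2FC of 1.18 had a 95% confidence interval of -1.17 to 3.52. Leaving out shCCN3 replicate 3 brought it to 0.51, leaving out shCTRL replicate 3 to 0.59, and leaving out shCTRL replicate 1 to 1.88. PTGER1, which encodes EP1, had 8 counts in shCTRL replicate 1 and 0 counts in each of the other 5 libraries, so that no difference was detectable at this depth.

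To compare receptors with each other, counts were divided by the length of each gene's annotated exons and scaled to 1000000 per library (TPM). On this scale PTGER4 made up 70.2, 66.2 and 69.1% of the EP receptor transcripts in the shCTRL libraries and 94.4, 92.9 and 94.1% in the shCCN3 libraries. PTGER2 made up 28.8, 33.6 and 30.9% in the shCTRL libraries and 5.39, 7.07 and 5.53% in the shCCN3 libraries. Neither share overlapped between the groups. The summed level of the 4 receptors was 27.0 ± 3.26 TPM in shCTRL cells and 35.4 ± 4.95 TPM in shCCN3 cells, and these sums overlapped, with 30.7 TPM in the highest shCTRL library and 29.7 TPM in the lowest shCCN3 library. The shares restate the lower PTGER2 and the higher PTGER4. With so few libraries, the overlap of the sums does not show that the totals are equal.

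**Figure D2:**
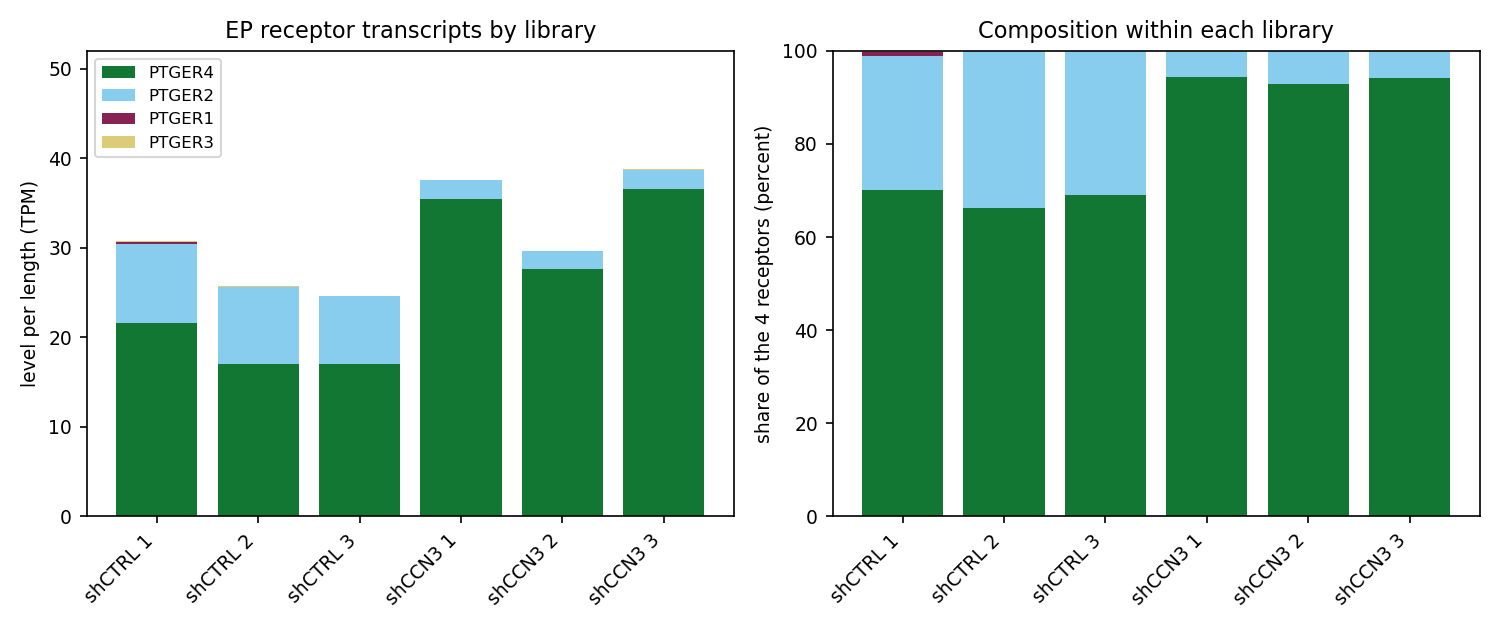
Stacked bars for the 6 libraries of the 4 EP receptor genes, as level per length (TPM, left) and as percent of the 4 receptors (right). The share of PTGER2 falls from 28.8 to 33.6% in shCTRL libraries to 5.39 to 7.07% in shCCN3 libraries, and PTGER1 and PTGER3 reach at most 0.902 and 0.347%.

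HPGD, the catabolic enzyme, lies on chromosome 4 from 174490177 to 174523154. HPGD mRNA was 2.28, 2.01 and 2.37 CPM in the shCTRL libraries and 0.725, 0.576 and 0.688 CPM in the shCCN3 libraries, from 126 to 159 and from 32 to 50 counts per library. All shCCN3 libraries were below all shCTRL libraries. The mean fell from 2.22 ± 0.190 CPM to 0.663 ± 0.0778 CPM. The log2FC was -1.74 (SE 0.183, 95% confidence interval -2.15 to -1.32), with a range of -1.81 to -1.65 over the fits without 1 library.

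The cyclooxygenases are membrane enzymes, PTGS1 the constitutive and PTGS2 the inducible form. PTGS2 mRNA was 4.76, 3.74 and 3.46 CPM in the shCTRL libraries and 5.15, 5.24 and 5.38 CPM in the shCCN3 libraries. The groups did not overlap, but shCTRL replicate 1 lay closer to the shCCN3 libraries than to the other 2 shCTRL libraries. The log2FC was 0.40 (SE 0.137, 95% confidence interval 0.09 to 0.71), and in the fit across all genes PTGS2 missed an adjusted p of 0.05. It passed with DESeq2, with limma-voom, with upper-quartile normalization and when shCTRL replicate 1 was left out, which gave a log2FC of 0.55. PTGS1 held 5, 9 and 0 counts in the shCTRL libraries and 8, 4 and 0 counts in the shCCN3 libraries, and was not tested. Per length, PTGS2 made up 98.4 ± 1.69% of the cyclooxygenase transcripts in shCTRL cells and 98.9 ± 1.01% in shCCN3 cells.

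The PGE2 synthases were expressed at very different levels. PTGES encodes the inducible microsomal synthase, PTGES2 a second membrane-associated synthase, and PTGES3 a cytosolic protein better known as the HSP90 co-chaperone p23. PTGES held 16, 23 and 9 counts in the shCTRL libraries and 17, 16 and 15 counts in the shCCN3 libraries. Its groups overlapped, and its log2FC of 0.07 had a 95% confidence interval of -0.89 to 1.03 and changed sign when single libraries were left out, from -0.22 without shCTRL replicate 3 to 0.48 without shCTRL replicate 2.

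PTGES2 mRNA was 84.1, 89.3 and 96.5 CPM in the shCTRL libraries and 73.3, 81.0 and 70.1 CPM in the shCCN3 libraries. The groups did not overlap, with a gap between them smaller than the range within each. The log2FC was -0.27 (SE 0.077, 95% confidence interval -0.44 to -0.09). It passed an adjusted p of 0.05 over all genes and lost it in 4 of 6 fits without 1 library, with -0.25 without shCCN3 replicate 1, -0.22 without shCCN3 replicate 3, -0.27 without shCTRL replicate 2 and -0.21 without shCTRL replicate 3. PTGES2 lies on chromosome 9, and the 24 tested genes nearest to it had a median log2FC of -0.25, close to its own.

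PTGES3 mRNA was 325, 306 and 309 CPM in the shCTRL libraries and 342, 360 and 341 CPM in the shCCN3 libraries. The libraries of the groups did not overlap, and the log2FC of 0.15 (SE 0.056, 95% confidence interval 0.02 to 0.28) missed an adjusted p of 0.05 but passed with DESeq2. PTGES3 has processed pseudogenes, and the 4 listed in the count table held at most 18 counts each, together up to 0.13% of the PTGES3 counts of a library. How reads that match several copies were assigned is not given in the sources used here.

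**Figure D3:**
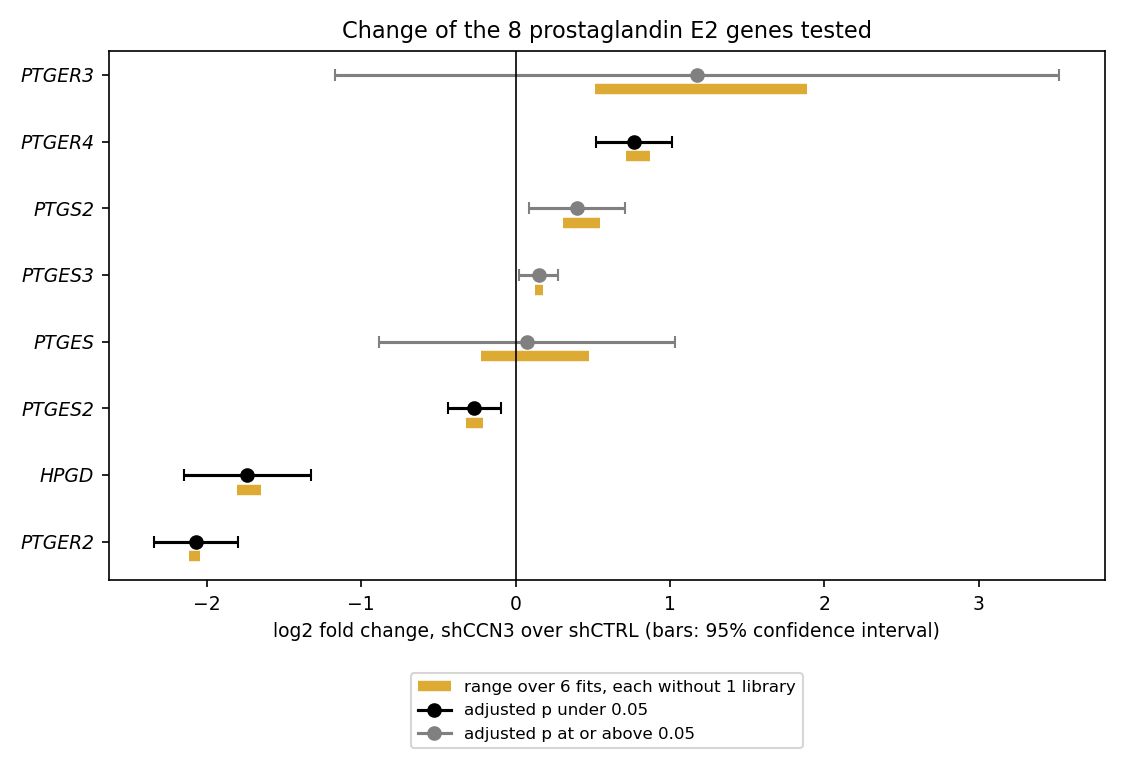
Log2 fold change of shCCN3 over shCTRL for the 8 PGE2 genes tested, with 95% confidence intervals (black where the adjusted p was under 0.05, grey otherwise) and the range over 6 fits that each left out 1 library (yellow). PTGER2 at -2.07, HPGD at -1.74 and PTGER4 at 0.77 keep narrow ranges, while PTGER3 spans 0.51 to 1.88.

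Of the 10 genes, 8 passed the filter on low counts. PTGER2, HPGD and PTGES2 were lower and PTGER4 was higher at the threshold of 0.05 on edgeR's adjusted p, 4 of the 8 genes tested beside 33.4% of all 17419 genes tested. PTGER2 and HPGD, 2 of the 8, also differed by at least 2-fold, beside 8.1% of all genes tested. PTGER2, PTGER4, HPGD, PTGS2, PTGES2 and PTGES3, 6 of the 8, did not overlap between the groups, beside 46.3% of all genes tested. Since the genes were chosen with this comparison known, nothing is read from these shares. Their median log2FC was 0.11, beside 0.01 over all genes tested. The genes most like PTGER2 over the 6 libraries, by Pearson correlation of log2 CPM among 13635 genes, were NEK6, CDIP1 and ODC1, with r of at least 0.9993. The points are the 3 libraries of each group, so the correlation is a description of both lines together, and the log2FC of NEK6 was -0.72.

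The order of levels per length changed between the lines. In shCTRL cells PTGES3 stood first at 305 TPM, followed by PTGES2 at 97.8, PTGER4 at 18.5, PTGER2 at 8.36, PTGS2 at 2.51, HPGD at 1.33 and PTGES at 0.428 TPM. Each of the first 6 was separated from the next, with no overlap between shCTRL libraries. PTGES, PTGER1, PTGS1 and PTGER3 at the low end overlapped with their neighbours in the order. In shCCN3 cells PTGS2, at 3.46 ± 0.201 TPM, stood above PTGER2, at 2.09 ± 0.0609 TPM, and PTGES at 0.468 TPM could no longer be separated from HPGD at 0.418 TPM. With the length of the longest transcript in place of all exons, PTGS2 and HPGD overlapped in shCTRL cells, and HPGD stood apart from PTGES in shCCN3 cells.

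Each gene was also set beside its neighbours on the chromosome. The 24 tested genes nearest to PTGER2 had a median log2FC of 0.06, those nearest to HPGD one of 0.14 and those nearest to PTGER4 one of -0.01. PTGER2 was below the lowest of its neighbours at -1.34, and HPGD was below the lowest of its neighbours at -0.41. PTGER3, at 1.18 and not called, was above the highest of its neighbours at 0.93. PTGER4 was within the range of its neighbours, which reached 4.62. None of the 10 genes lies on chromosome 7, whose 703 tested genes had a median log2FC of -0.44.

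**Figure D4:**
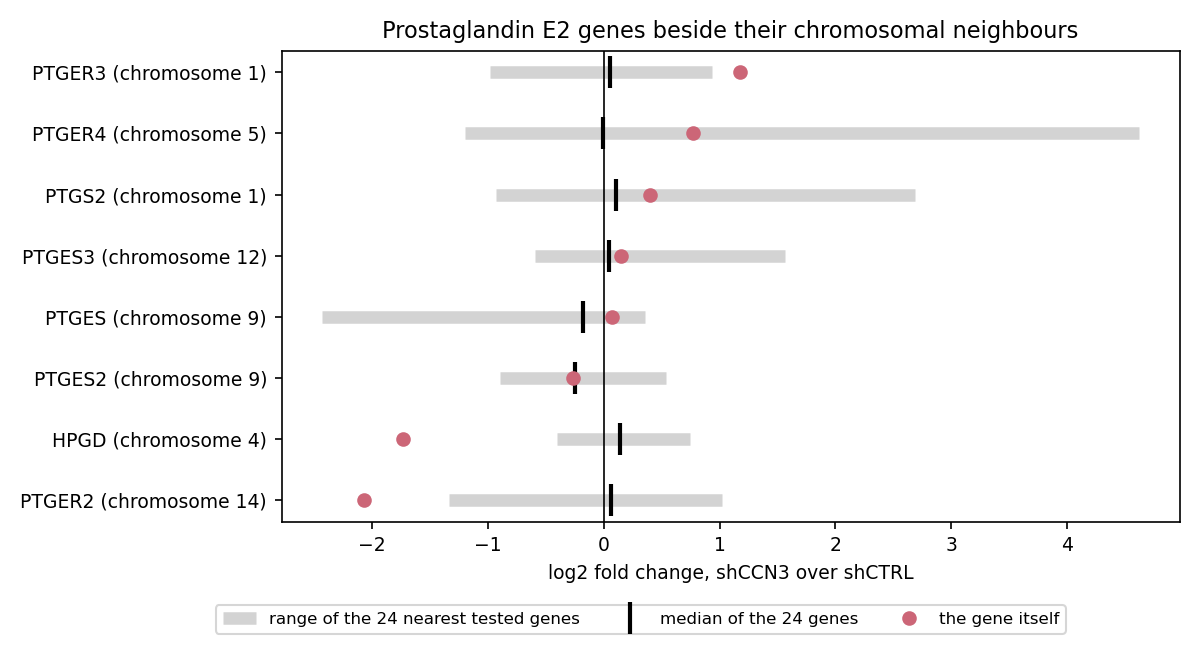
Log2 fold change of shCCN3 over shCTRL for the 8 PGE2 genes tested (points), beside the median (black mark) and range (grey bar) of the 24 tested genes nearest to each on its chromosome. PTGER2 at -2.07 and HPGD at -1.74 lie below all of their neighbours, and PTGES2 at -0.27 lies at its neighbours' median of -0.25.

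The promoters of the 3 genes with the clearest differences and of PTGS2 are shown so that their base composition and motifs can be compared. They come from RefSeq on GRCh38.p14 and run from 250 bases before to 50 bases after the annotated start, 5′ to 3′ on the strand of the gene. Both strands were searched for the cAMP response element (TGACGTCA), the AP-1 site (TGANTCA), the CCAAT box (CCAAT), the TATA box (TATAAA), the GC box (GGGCGG), the TEAD site (CATTCC) and the NF-kappaB site (GGGRNNYYCC), and capitals mark every match. In these patterns R is A or G, Y is C or T, and N is any base.
PTGER2, chr14:52314062-52314361, plus strand: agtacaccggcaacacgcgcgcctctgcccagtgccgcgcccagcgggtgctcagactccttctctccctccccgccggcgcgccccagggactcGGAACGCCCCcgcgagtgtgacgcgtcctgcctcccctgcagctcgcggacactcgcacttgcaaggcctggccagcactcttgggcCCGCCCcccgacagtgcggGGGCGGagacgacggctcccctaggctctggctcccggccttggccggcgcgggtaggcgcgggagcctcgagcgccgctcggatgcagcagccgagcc
PTGER4, chr5:40679665-40679964, plus strand: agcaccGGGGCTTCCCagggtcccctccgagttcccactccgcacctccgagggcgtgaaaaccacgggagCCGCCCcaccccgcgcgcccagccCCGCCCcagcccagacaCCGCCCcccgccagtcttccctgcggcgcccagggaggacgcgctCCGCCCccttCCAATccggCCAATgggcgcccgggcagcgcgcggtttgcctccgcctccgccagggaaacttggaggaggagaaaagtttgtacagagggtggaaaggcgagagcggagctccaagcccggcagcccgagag
HPGD, first of 2 annotated starts, chr4:174522439-174522738, minus strand: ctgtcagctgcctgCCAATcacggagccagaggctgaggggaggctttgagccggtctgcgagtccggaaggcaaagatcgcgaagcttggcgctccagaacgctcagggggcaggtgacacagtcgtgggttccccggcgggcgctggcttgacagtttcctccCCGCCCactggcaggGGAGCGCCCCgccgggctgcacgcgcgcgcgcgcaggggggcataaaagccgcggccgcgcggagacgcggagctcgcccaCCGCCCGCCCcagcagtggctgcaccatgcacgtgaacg
PTGS2, chr1:186680374-186680673, minus strand: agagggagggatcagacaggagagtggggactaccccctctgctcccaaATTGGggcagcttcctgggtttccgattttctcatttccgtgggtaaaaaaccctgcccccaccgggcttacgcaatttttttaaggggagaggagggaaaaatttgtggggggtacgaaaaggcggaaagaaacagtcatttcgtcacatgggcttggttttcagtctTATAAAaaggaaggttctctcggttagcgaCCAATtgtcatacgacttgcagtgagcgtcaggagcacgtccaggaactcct

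The promoters of PTGER2, PTGER4 and the first HPGD start were rich in G and C, at 74.7, 72 and 71% of bases, whereas that of PTGS2 held 50.7%, beside a median of 58.7% over 35116 promoters of the same length. Among the other members, not printed, PTGES held 61.7%, PTGES3 68% and PTGER1 74.3%. The PTGES2 starts held 72.3, 63.3 and 72.3%, and the PTGS1 starts 50.7 and 64.7%. A share above the median was thus not particular to the genes with the clearest differences. The window of the second HPGD start, not printed, held 44.7% and had no match to any of the 7 motifs. Which HPGD start these cells use was not measured. PTGER2 held 2 GC boxes and the first HPGD start 3, a pair of which overlap. PTGER4 held 4 GC boxes and 2 CCAAT boxes. The GC box occurs in 45% and the CCAAT box in 34.6% of all promoters. An NF-kappaB match was present in PTGER2, PTGER4 and the first HPGD start, and in 11.3% of all promoters. PTGES3, not printed and not called, held one as well. PTGS2 had no exact match to this pattern, and sites that depart from the pattern were not searched for. PTGS2 had a TATA box, from 32 to 27 bases before the start, which 11.5% of promoters hold, and 2 CCAAT boxes. The cAMP response element, the AP-1 site and the TEAD site, present in 1.85, 7.71 and 14% of promoters, had no exact match in these 4 windows. A match does not show that a factor binds.

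The wider prostanoid pathway was described with 7 lists of other genes, 100 in all, put together by function. These lists were chosen with earlier results of these data known, so nothing is read from their shares. Of the 74 that passed the filter, 20 were higher and 17 were lower in shCCN3 cells at the same threshold, beside 16.2% and 17.3% of all genes tested. The same percentages stand beside the counts of each list below. The number of higher genes dropped to 13 without shCCN3 replicate 3 and without shCTRL replicate 2. Over all genes tested, the number called higher dropped from 2814 to 2280 and 2044 in these fits.

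For arachidonate release and reacylation, 3 of the 13 genes tested were higher and 5 were lower, with a median log2FC of -0.02. PLA2G4A, the cytosolic phospholipase A2 that releases arachidonic acid, rose from 0.416 ± 0.0594 CPM to 1.10 ± 0.163 CPM (log2FC 1.40, SE 0.241, adjusted p = 0.00192). It is a chromosomal neighbour of PTGS2, and the median of the nearest 24 genes was 0.11 for both. PLA2G4C, another member of the cytosolic family, had a log2FC of 0.92 (adjusted p = 0.00906). Of the 3 PLA2G genes with the highest CPM, named after their values were seen, 2 were lower. PLA2G6, a calcium-independent form, fell from 28.5 ± 3.78 CPM to 21.6 ± 0.813 CPM (log2FC -0.40, adjusted p = 0.0118). PLA2G12A, a secreted form, fell from 21.3 ± 0.769 CPM to 18.3 ± 0.288 CPM (log2FC -0.22, adjusted p = 0.0344), and passed 0.05 in 1 of 6 fits without 1 library, that without shCCN3 replicate 2. PLA2G15, the lysosomal form, had a log2FC of 0.16 and an adjusted p of 0.121. LPCAT3, which returns arachidonate to phospholipids, fell from 31.4 ± 1.28 CPM to 21.5 ± 0.623 CPM (log2FC -0.54, adjusted p = 0.00027). ANXA1, which encodes the phospholipase-binding protein annexin A1, fell by 0.44 on the log2 scale, from 543 to 401 CPM (adjusted p = 0.000345). DAGLB, a diacylglycerol lipase, had a log2FC of -0.61 (adjusted p = 0.000207), and it lies on chromosome 7, where its neighbours had a median of -0.31. MGLL, a monoacylglycerol lipase that frees arachidonic acid from an endocannabinoid, had a log2FC of 0.17 (adjusted p = 0.0369), and it passed 0.05 in 1 of 6 fits without 1 library, that without shCCN3 replicate 2.

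Synthases of other prostanoids use the same PGH2. Of the 5 tested, 2 were higher and 2 were lower. PTGIS, prostacyclin synthase, was 0.175, 0.509 and 0.417 CPM in the shCTRL libraries and 1.68, 1.53 and 1.58 CPM in the shCCN3 libraries (log2FC 2.12, SE 0.329, adjusted p = 0.00102). AKR1C3, which reduces PGD2 and PGH2 to F-type prostaglandins, rose by 0.51 on the log2 scale (adjusted p = 0.00204). PRXL2B, prostamide and prostaglandin F synthase, fell from 80.2 ± 5.39 CPM to 33.5 ± 2.43 CPM (log2FC -1.26, adjusted p = 4.26e-06), among neighbours on chromosome 1 with a median of -0.41. TBXAS1, thromboxane synthase, had a log2FC of -0.89 (adjusted p = 0.00102) and lies on chromosome 7 among neighbours with a median of -0.22. AKR1B1, an aldose reductase also able to make PGF2alpha, was 315 ± 14.0 CPM and 269 ± 26.1 CPM, with an adjusted p of 0.0503, and its neighbours on chromosome 7 had a median of -0.42. PTGDS and HPGDS, the PGD2 synthases, were at 0 in every library.

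Among receptors of the other prostanoids, 2 of 5 were tested. TBXA2R, the thromboxane receptor, fell from 16.6 ± 0.453 CPM to 12.3 ± 0.235 CPM (log2FC -0.43, adjusted p = 0.00161). PTGFR, the PGF2alpha receptor, was 36.5 ± 1.39 CPM in shCTRL and 40.4 ± 6.53 CPM in shCCN3 libraries, with overlapping groups and an adjusted p of 0.332. The prostacyclin receptor gene PTGIR held at most 3 counts in any library.

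For transport and the later steps of breakdown, 1 of 9 genes tested was lower and 0 were higher. This gene was SLCO4A1, an organic anion transporter, which fell from 25.2 ± 0.833 CPM to 14.0 ± 1.08 CPM (log2FC -0.85, adjusted p = 5.23e-05). SLCO2A1, the prostaglandin uptake transporter that acts ahead of HPGD, was 46.7 ± 2.04 CPM in shCTRL and 43.6 ± 4.15 CPM in shCCN3 cells, with a log2FC of -0.10, a 95% confidence interval of -0.28 to 0.08 and an adjusted p of 0.383. CBR1, a carbonyl reductase that converts PGE2 to PGF2alpha, had a log2FC of 0.06 (95% confidence interval -0.13 to 0.25, adjusted p = 0.624).

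The lipoxygenase arm, which competes for arachidonic acid, had 9 of its 13 genes too low to be tested, with ALOX5, ALOX15, ALOX15B and CYSLTR2 at 0 in every library. LTB4R, a receptor for leukotriene B4, rose from 13.0 ± 0.738 CPM to 17.1 ± 0.475 CPM (log2FC 0.39, adjusted p = 0.00396). LTB4R2, its low-affinity relative at the same locus, had a log2FC of 0.92 (adjusted p = 0.0261), and passed 0.05 only without shCCN3 replicate 2 and without shCTRL replicate 2 among the 6 fits that each left out 1 library. The annotated spans of LTB4R and LTB4R2 overlap on the same strand. LTB4R held 829 to 1218 counts per library and LTB4R2 held 40 to 113. Whether reads of LTB4R were counted for LTB4R2 was not tested. LTA4H, which makes leukotriene B4, had a log2FC of -0.18 and an adjusted p of 0.0678.

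In cyclic AMP signalling, the path used by EP2 and EP4, 5 of 26 genes tested were higher and 6 were lower, with a median log2FC of 0.03. Of the 4 regulatory subunit genes of protein kinase A, whose products hold the kinase inactive until cyclic AMP binds, PRKAR1B and PRKAR2B fell. PRKAR1B fell from 11.1 ± 0.766 CPM to 2.53 ± 0.556 CPM (log2FC -2.14, SE 0.153, adjusted p = 1.02e-05), and PRKAR2B had one of -1.02 (adjusted p = 0.000437). Both lie on chromosome 7. PRKAR1B had 15 neighbours, with a median of -0.52, and was below the lowest of them at -1.23. The neighbours of PRKAR2B had a median of -0.47 and reached -1.25, below its own value. The other two, PRKAR1A and PRKAR2A, named after their values were seen, were at 127 and 88.8 CPM in shCTRL and 140 and 85.8 CPM in shCCN3 libraries. Their log2FC was 0.14 and -0.05 (95% confidence intervals -0.10 to 0.37 and -0.27 to 0.17, adjusted p = 0.352 and 0.74). PRKACA, a catalytic subunit, fell by 0.29 on the log2 scale, from 222 to 182 CPM (adjusted p = 0.00573). ARRB1 and ARRB2, arrestins that uncouple activated receptors, fell by 0.44 and 0.49 on the log2 scale (adjusted p = 0.000685 and 0.00175). NR4A3, an orphan nuclear receptor gene induced by cyclic AMP, rose in shCCN3 cells, with 54 to 91 counts per library in shCTRL and 99 to 156 in shCCN3 (log2FC 0.92, adjusted p = 0.012). Other genes of this list, named after their values were seen, did not all follow. NR4A1 and PDE4D had log2 fold changes of 0.33 and 0.42 (adjusted p = 0.0443 and 0.0143). They passed 0.05 in 1 and 4 of the 6 fits without 1 library. CREB1, ATF1 and CRTC1 had log2 fold changes of 0.32, 0.41 and -0.40 (adjusted p = 0.00977, 0.0195 and 0.00172), and passed in 5, 3 and 6 of these fits. PRKACB, another catalytic subunit, had one of -0.13 (adjusted p = 0.222). NR4A2, PDE4B and CREM had log2 fold changes of -0.20, -0.20 and -0.0043 (adjusted p = 0.608, 0.649 and 0.974). What these genes say about cyclic AMP was not tested. GNAS, which encodes the alpha subunit of Gs, was 531 ± 14.9 CPM in shCTRL and 588 ± 31.6 CPM in shCCN3 libraries, with an adjusted p of 0.0896.

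Regulators of PTGS2 and PTGES expression held 15 tested genes, of which 8 were higher and 2 were lower, with a median log2FC of 0.27. Over all genes tested, 16.2% were higher and 17.3% lower, with a median of 0.01. RELA and NFKB1, named after their values were seen, were among the 8, with log2 fold changes of 0.18 and 0.29. They passed 0.05 in 1 and 2 of the 6 fits without 1 library. EGR1, an immediate early factor known to drive PTGES, rose from 1.68 ± 0.152 CPM to 4.14 ± 0.299 CPM (log2FC 1.30, adjusted p = 0.000108). CEBPD, a transcription factor of the C/EBP family, had a log2FC of 0.44 (adjusted p = 0.00545). TSC22D3, a glucocorticoid-induced gene, had one of 0.86 (adjusted p = 3.15e-05). ZFP36, which encodes tristetraprolin, a protein that destabilizes AU-rich mRNAs such as that of PTGS2, fell from 37.5 ± 1.16 CPM to 16.7 ± 2.84 CPM (log2FC -1.16, adjusted p = 5.8e-05). ZFP36L1, its paralogue, named after its values were seen, rose from 96.6 ± 7.80 CPM to 131 ± 16.5 CPM (log2FC 0.44, adjusted p = 0.00775). IL1R1, the receptor of interleukin-1, fell by 0.51 on the log2 scale (adjusted p = 0.00654). ELAVL1 and KHSRP, which bind AU-rich mRNAs as well, had log2 fold changes of 0.03 and 0.06 and adjusted p-values of 0.662 and 0.576. TNF, named after its values were seen, held 2, 0 and 0 counts in the shCTRL libraries and 13, 12 and 20 counts in the shCCN3 libraries, and was 1 of the 8 higher genes.

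**Figure D5:**
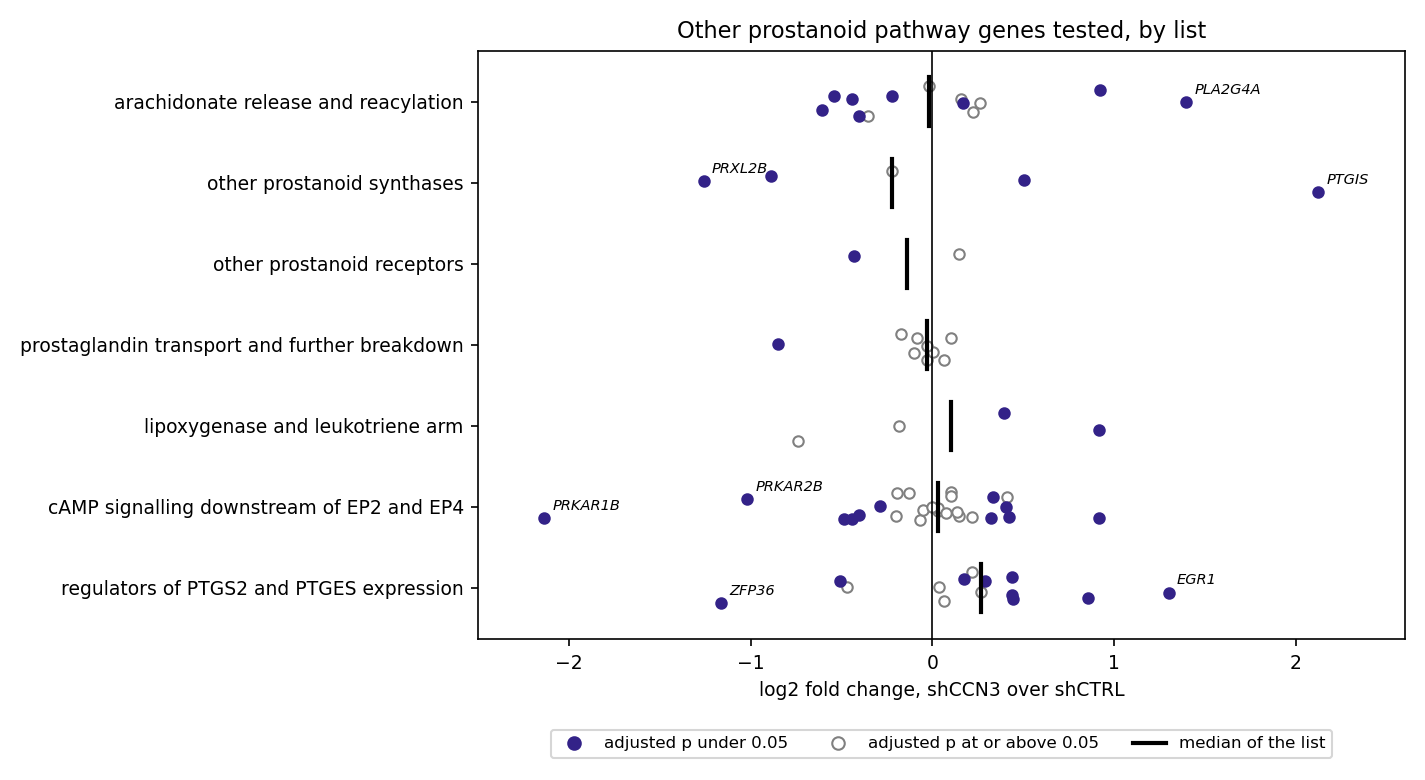
Log2 fold change of shCCN3 over shCTRL for the genes tested in 7 lists of other prostanoid pathway genes, filled where the adjusted p was under 0.05, with black bars for list medians. PTGIS at 2.12 and PRKAR1B at -2.14 lie furthest out, the transport and breakdown genes lie close to 0 apart from SLCO4A1 at -0.85, and TNF is left out of the plot because it had at most 2 counts in any shCTRL library.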

How the data were processed

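RNA was sequenced from 3 shCTRL and 3 shCCN3 samples of Hs578T cells. The authors deposited raw read counts per gene without normalization, from TruSeq Stranded mRNA libraries. Per the submitters' processing notes, bcl2fastq 2.20.0, Trimmomatic, HISAT2 2.1.0, StringTie 2.1.3d, DESeq2 and GRCh38 were used. The roles of the tools, the annotation and the strand setting are not given in the sources used here, so values of overlapping genes and near-identical copies are uncertain. Whether the whole-number counts were tallied reads or were derived from StringTie's estimates is not given either. They were treated as counts, as the column names say. Single libraries can hold jumps, as for PLA2G4B (311, 317 and 9 counts in shCTRL, 311, 0 and 191 in shCCN3). Its mean was 3.23 CPM in shCTRL and 2.50 CPM in shCCN3 libraries, above that of HPGD in both groups. The labels call the replicates independent, without naming cultures, so p-values measure the spread between these samples.

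CPM and fold changes were obtained from these counts in R 4.3.3 with edgeR 4.0.16 (TMM, filterByExpr, quasi-likelihood test, Benjamini-Hochberg adjustment over 17419 genes, threshold 0.05). Exonic lengths and positions came from GENCODE 29 on GRCh38, for 26551 genes, and promoters from RefSeq, which held 9 of the 10 genes. Of each other list, up to 5 genes with the largest change at an adjusted p under 0.05 and at least 1 CPM, and the 2 genes with the highest level, were named. The gene ZADH2 stands in for PTGR3, its current symbol. Scripts were tested on simulated data. The members and lists were chosen with earlier results of these data known. Alternatives were other normalizations, filters and tests (DESeq2 1.42.0, limma 3.58.1), a replicate block and each library left out.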

Additional observations from a re-analysis of the deposited data

How the results depend on the processing

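PTGER2, HPGD and PTGER4 kept their direction and an adjusted p under 0.05 in each of 13 alternatives, with log2 fold changes from -2.11 to -2.04, from -1.81 to -1.65 and from 0.71 to 0.87. The number of PGE2 genes called higher was 1 and became 2 with upper-quartile normalization, 3 with DESeq2 and 2 with limma-voom, where PTGS2 or PTGES3 passed. Over all genes tested it was 2814, and became 2829, 3048 and 2801 in the same order. With single libraries left out, 1 to 2 PGE2 genes were called higher. The number of PGE2 genes called lower was 3, and 2 to 3 with single libraries left out. The other pathway genes called higher numbered 13 to 24 with single libraries left out. Over all genes tested, 2044 to 3571 were called higher and 2137 to 3658 lower with single libraries left out. In those fits the log2 fold change ranged from -0.22 to 0.48 for PTGES, from -0.0092 to 0.13 for CBR1 and from -0.021 to 0.13 for KHSRP, none of which was called. Levels in shCTRL cells became 93.2 TPM for PTGES2, 258 TPM for PTGES3, 6.34 TPM for PTGER2, 13.9 TPM for PTGER4 and 1.77 TPM for HPGD with the longest transcript as length, and the receptor shares moved by less than 1 SD. Deviations of same-numbered libraries from their group means correlated at 0.09, -0.03 and -0.07, and 2 of the 6 libraries correlated best with their own number. Pairing by number was not seen in these values, which cannot show that it was absent. With a replicate block PTGES2 lost its call, and 1 PGE2 gene was higher and 2 were lower. Over all genes tested, 2331 were higher and 2556 lower with this block. The causes were not tested. PTGES and PTGER3 dropped out with a minimum of 10 counts in every library. PTGS1 and PTGER1, with at most 9 counts in any library, did not pass the filter and were not tested.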
